A study of Mus musculus with 2 samples.

Results

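Toll-like receptors, their partners for lipopolysaccharide, the shared adaptor and the NOD receptors were examined in whole-colon RNA of EP4 cKO mice and their Villin-Cre controls. The set held 10 genes, namely Tlr1, Tlr2, Tlr4, Tlr5, Tlr9, Cd14, Ly96, Myd88, Nod1 and Nod2. They were chosen by name, and every gene probe whose RefSeq accession matched 1 of them was kept, which gave 15 of the 56593 probes and 10 of the 22909 genes that could be named on the arrays. EP4 cKO mice were Villin-Cre; EP4flox/flox, so that Cre recombinase driven by the villin promoter deleted floxed Ptger4 sequence, which encodes the prostaglandin E2 receptor EP4, in the intestinal epithelium. Controls carried Villin-Cre too, and their label names no floxed allele. Both were C57BL/6 mice, 8 weeks old by the study methods, with no treatment named, and the RNA came from whole colon, whose stromal, muscle and immune cells do not express villin and keep Ptger4. Each genotype had 1 array, and the labels describe its RNA as combined from 3 pools of colon. With 1 array per genotype there was no replicate, no difference could be tested, and every value below describes these arrays only.

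These receptors detect conserved parts of microbes. Toll-like receptors are membrane proteins that bind bacterial lipoproteins, lipopolysaccharide, flagellin or nucleic acids. Most of them signal through the adaptor Myd88 to IRAK kinases, TRAF6 and NF-kappaB. Nod1 and Nod2 sit in the cytosol, bind fragments of peptidoglycan and signal through the kinase Ripk2. In the colon, where the epithelium lies next to dense microbiota, they are found in epithelial cells as well as in macrophages and other cells of the lamina propria, and Nod2 is best known as a susceptibility gene of Crohn's disease.

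Promoter sequences were available for 7 of the 10 genes in the RefSeq table of the assembly GRCm38.p6, as 300 bases from 250 before to 50 after a transcript start. Tlr4, Cd14 and Ly96 had none printed here. Of the 9 promoters of these genes, 4 are shown, namely those of the members with the highest and the lowest ratio under trimmed-mean scaling (Nod2 and Tlr5), the one with an interferon-type ISRE core (Myd88) and the one with a kappaB form (Tlr2). Capitals mark matches, on either strand, to an ISRE core (GAAA, any 2 bases, GAAA), a GAS core (TTC, any 3 bases, GAA) or a kappaB form (GGG, any 3 bases, TTCC).
Nod2 (chr8:88647097-88647396, plus strand): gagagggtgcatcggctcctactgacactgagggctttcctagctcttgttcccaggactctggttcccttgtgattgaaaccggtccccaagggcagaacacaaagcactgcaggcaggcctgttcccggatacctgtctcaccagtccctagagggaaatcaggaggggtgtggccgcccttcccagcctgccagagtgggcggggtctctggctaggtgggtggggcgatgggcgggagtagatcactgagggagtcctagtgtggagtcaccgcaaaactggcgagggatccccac
Tlr5 (chr1:182954538-182954837, plus strand): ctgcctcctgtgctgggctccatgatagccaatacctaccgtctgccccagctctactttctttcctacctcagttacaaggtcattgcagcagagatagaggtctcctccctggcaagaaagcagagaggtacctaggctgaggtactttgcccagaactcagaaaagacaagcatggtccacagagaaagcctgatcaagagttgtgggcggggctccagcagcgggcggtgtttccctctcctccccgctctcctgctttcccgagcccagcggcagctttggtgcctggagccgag
Myd88 (chr9:119339969-119340268, minus strand): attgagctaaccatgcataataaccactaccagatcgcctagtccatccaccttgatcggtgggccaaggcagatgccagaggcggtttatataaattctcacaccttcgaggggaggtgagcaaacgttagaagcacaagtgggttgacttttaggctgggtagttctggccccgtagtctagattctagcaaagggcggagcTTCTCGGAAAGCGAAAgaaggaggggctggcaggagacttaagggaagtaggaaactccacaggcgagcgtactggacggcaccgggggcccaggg
Tlr2 (chr3:83841559-83841858, minus strand): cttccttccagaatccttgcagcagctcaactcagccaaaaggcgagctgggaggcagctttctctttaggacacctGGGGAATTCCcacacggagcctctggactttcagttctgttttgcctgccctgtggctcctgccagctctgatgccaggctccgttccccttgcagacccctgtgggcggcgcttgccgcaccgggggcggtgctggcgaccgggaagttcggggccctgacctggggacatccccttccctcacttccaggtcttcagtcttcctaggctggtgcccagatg
The capitals of Myd88 are a GAS match that begins at position -46 from the start and an ISRE match that begins at position -40 and overlaps it. The match of Tlr2 is the kappaB form, beginning at position -173. Over all 32851 promoters of the table, 3.44% held the ISRE core, 8.30% the GAS core and 5.56% the kappaB form. Among the 9 promoters of the members, 1 held the ISRE core, 3 the GAS core (Myd88, and 1 promoter each of Tlr1 and Nod1) and 1 the kappaB form, and 5 held no match, those of Nod2 and Tlr5 included. A match describes letters and not a bound site.

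The arrays were of 1 colour (Cy3), and the signal used is the intensity that the scanner software gives after it has removed background and spatial trends. Each array was scaled so that the mean of its probes, after trimming 2% from either end, became 2500. The factors were 3.45 for Villin-Cre and 2.68 for EP4 cKO. The software flags spots well above background, which 45.4% of the probes were on the Villin-Cre-labelled array and 51.6% on the EP4 cKO-labelled array. A ratio is EP4 cKO over Villin-Cre on the log2 scale, so that 1 is 2-fold, and its error is that of the 2 spots by the software's own error model, which covers neither mice nor pools. Levels of different probes are not compared, since probes differ in brightness for the same amount of RNA. The 14668 genes with a value had a median of -0.10. Ptger4, the targeted gene, had a normalized signal of 6227 on the Villin-Cre-labelled array and 5661 on the EP4 cKO-labelled array with its brighter probe (log2 ratio -0.14), and 393 and 592 with its dimmer probe (0.59). The targeted gene thus gave no check of the labels, and every direction below rests on them. Whether its probes lie in the deleted part was not given in the sources used here.

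The receptor complex for lipopolysaccharide was higher on the EP4 cKO-labelled array with each of its probes that could be measured. Tlr4, the signalling receptor for lipopolysaccharide, had a normalized signal of 775 on the Villin-Cre-labelled array and 1339 on the EP4 cKO-labelled array. This is 1.73-fold higher, a log2 ratio of 0.79 ± 0.21 (software error), and 6.97% of all genes with a value had a higher ratio. A dimmer probe of Tlr4 stayed near background on both arrays (30.6 and 48.5). Cd14, which hands lipopolysaccharide to the receptor, had 8483 and 15582 with its brighter probe, which is 1.84-fold higher (log2 ratio 0.88 ± 0.20). Its other probe had 5818 and 12039, which is 2.07-fold higher (1.05 ± 0.20), so that the 2 probes of Cd14 lie on either side of 2-fold and differ by less than their error. Ly96 encodes MD-2, the protein on the surface of Tlr4 that holds lipopolysaccharide. With its brighter probe it had 33114 and 45324, which is 1.37-fold higher (log2 ratio 0.45 ± 0.20), and with a probe for another transcript 340 and 449, which is 1.32-fold higher (0.40 ± 0.23). By brightest probe, Tlr4, Cd14 and Ly96 thus all had a log2 ratio above 0, as 36.3% of all genes with a value did. Counted by probe, 1 of their 5 measured probes (a Cd14 probe) was past 2-fold higher and none lower, where 4.32% and 7.61% of all named probes were.

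**Figure D1:**
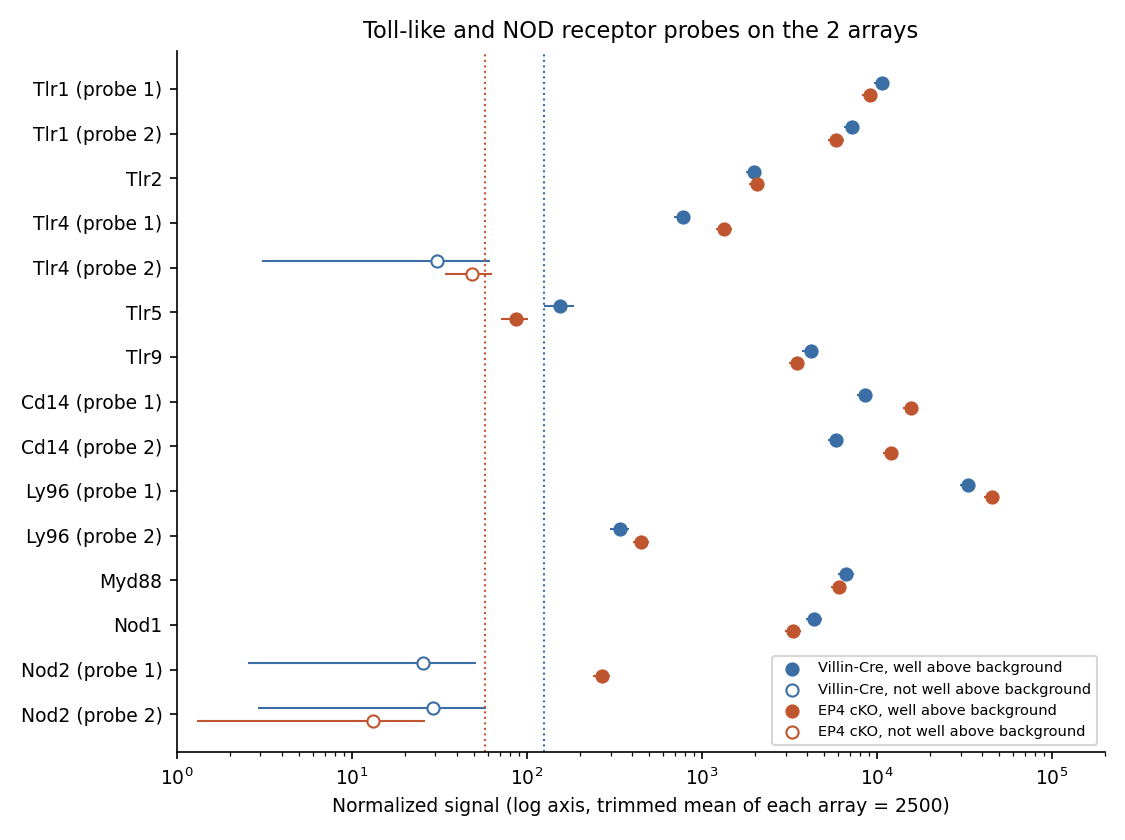
Normalized signal (log axis) of each of the 15 probes on the Villin-Cre-labelled array (blue) and the EP4 cKO-labelled array (orange), with filled points for probes well above background, open points for the others, and the lowest signal well above background on each array as a dotted line. Bars are the error that the scanner software gives, cut short where they would come near 0 on the log axis. The orange point lies to the right of the blue one for the measured probes of Tlr4, Cd14 and Ly96 and for the first probe of Nod2, whose signals were 25.6 and 269.

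Of the other Toll-like receptors of the set, with the trimmed mean Tlr2 was near equal and Tlr1, Tlr9 and Tlr5 were lower on the EP4 cKO-labelled array. With scaling to spike-in spots all of them were above 0 (Tlr1 0.83, Tlr9 0.81, Tlr5 0.22), and Tlr2 was past 2-fold (1.13). Tlr2, which recognizes bacterial lipoproteins, had 1980 on the Villin-Cre-labelled array and 2058 on the EP4 cKO-labelled array, a log2 ratio of 0.06 ± 0.21. Tlr1, with which Tlr2 pairs to bind triacylated lipoproteins, had 10705 and 9057 with its brighter probe (-0.24 ± 0.20) and 7208 and 5857 with the other (-0.30 ± 0.20). Both probes of Tlr1 were lower on the EP4 cKO-labelled array, by 1.18-fold and 1.23-fold. Tlr9, the endosomal receptor for unmethylated CpG DNA, had 4167 and 3489, which is 1.19-fold lower (-0.26 ± 0.20). Tlr5, the receptor for flagellin, had 155 and 86.0, which is 1.80-fold lower (-0.85 ± 0.38). This was the lowest ratio of the 10 genes with the trimmed mean, whereas after normexp and after loess Nod1 was lower (-0.38 against -0.26, and -0.28 against -0.12). Its signals lie close to the lowest signal well above background, which was 125 on the Villin-Cre-labelled array and 57.8 on the EP4 cKO-labelled array, and its error was the largest of the members.

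Myd88, the adaptor of all Toll-like receptors of the set, had 6688 on the Villin-Cre-labelled array and 6042 on the EP4 cKO-labelled array. The log2 ratio was -0.15 ± 0.20, which is within its error of 0 and close to the median of all genes. Myd88 is the member whose promoter, printed above, holds both an ISRE and a GAS match.

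The NOD receptors lay on opposite sides with the trimmed mean, but both above 0 with scaling to spike-in spots (Nod1 0.67, Nod2 at least 2.17). Nod1, which recognizes peptidoglycan fragments with meso-diaminopimelic acid, had 4391 and 3330, which is 1.32-fold lower on the EP4 cKO-labelled array (log2 ratio -0.40 ± 0.20). Nod2, the receptor for muramyl dipeptide, had 25.6 on the Villin-Cre-labelled array, where it was not well above background, and 269 on the EP4 cKO-labelled array, where it was. Its dim side on the Villin-Cre-labelled array was therefore held at the lowest signal well above background there. Nod2 was at least 2.15-fold higher on the EP4 cKO-labelled array (a log2 ratio of at least 1.1, and 0.90 after normexp, within 2-fold). The second probe of Nod2 stayed near background on both arrays (29.0 and 13.1), so that the value rests on 1 probe. The study had picked Nod2 from these arrays, and its value is not independent of that choice.

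Counted by the brightest probe of a gene, 1 of the 10 members (Nod2, by its bound) exceeded 2-fold in the higher direction on the EP4 cKO-labelled array, and no member did so in the lower. Over all genes with a value, 4.89% lay above 2-fold in the higher and 7.98% in the lower direction. With a threshold of 1.5-fold, Tlr4, Cd14 and Nod2 were higher and Tlr5 lower, which is 3 and 1 of 10 members, against 9.87% and 18.7% of all genes. The median log2 ratio of the members was -0.05, against -0.10 over all genes, and it ran from -0.85 (Tlr5) to 1.1 (Nod2). Of the 10 members, 5 had a log2 ratio above 0 and 5 below, against 36.3% and 57.5% of all genes. A gene measured only on the EP4 cKO-labelled array, such as Nod2, could not fall below 0 by its treatment. Over genes measured on both arrays, the median was -0.15 for the 9 members and -0.15 for all genes. All 10 passed the filter on dim probes, as 64.0% of all named genes did. Both arrays measured 9 of them, and 87.3% of all genes with a value.

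The values depended on how the arrays were scaled. Scaling to the 75th percentile or to spike-in spots adds the same amount to every ratio measured on both arrays, whereas normexp and loess moved the dim probes of Tlr5 and Nod2 more than those of Tlr4 and Cd14. Scaling to the 75th percentile gave 1.03 for Cd14 and 0.01 for Myd88. After normexp background correction with quantile normalization the bound of Nod2 was 0.90, within 2-fold, and Tlr5 stood at -0.26. Loess on mean signal brought Tlr5 to -0.12 and Nod2 to 2.0. For Nod2 that mean signal includes the side that was not measured, so its loess value is not a strict lower bound. Scaling to 7 spike-in control probes (E1A), which stand for an equal amount of added RNA on both arrays, raised the median of all genes by 1.0, and with it Tlr1 to 0.83, Tlr9 to 0.81, Myd88 to 0.92, Nod1 to 0.67 and Tlr5 to 0.22, so that the sign of each of these 5 genes flipped. Tlr4 ran from 0.79 to 1.86, Cd14 from 0.87 to 1.95, Ly96 from 0.39 to 1.52 and Tlr2 from 0.06 to 1.13 over the 7 alternatives that give a ratio. Both scalings that add a constant add a positive one, so they could turn only ratios below 0. Tlr4, Cd14 and Ly96 had higher ratios than Tlr1, Tlr2, Tlr5, Tlr9, Myd88 and Nod1 after normexp and after loess. The former lay between 0.39 and 0.87 and the latter between -0.38 and 0.12 after normexp, and between 0.49 and 0.98 and between -0.28 and 0.20 after loess. They lay between 0.45 and 0.88 and between -0.85 and 0.06 with the trimmed mean. Taking a gene as the mean of its probes could hardly alter this order. Among these genes it changed only Tlr1 (to -0.27), Cd14 (to 0.96) and Ly96 (to 0.43). Each alternative uses the same arrays on which Tlr4, Cd14 and Ly96 already stood above the others, so the order was not checked independently.

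**Figure D2:**
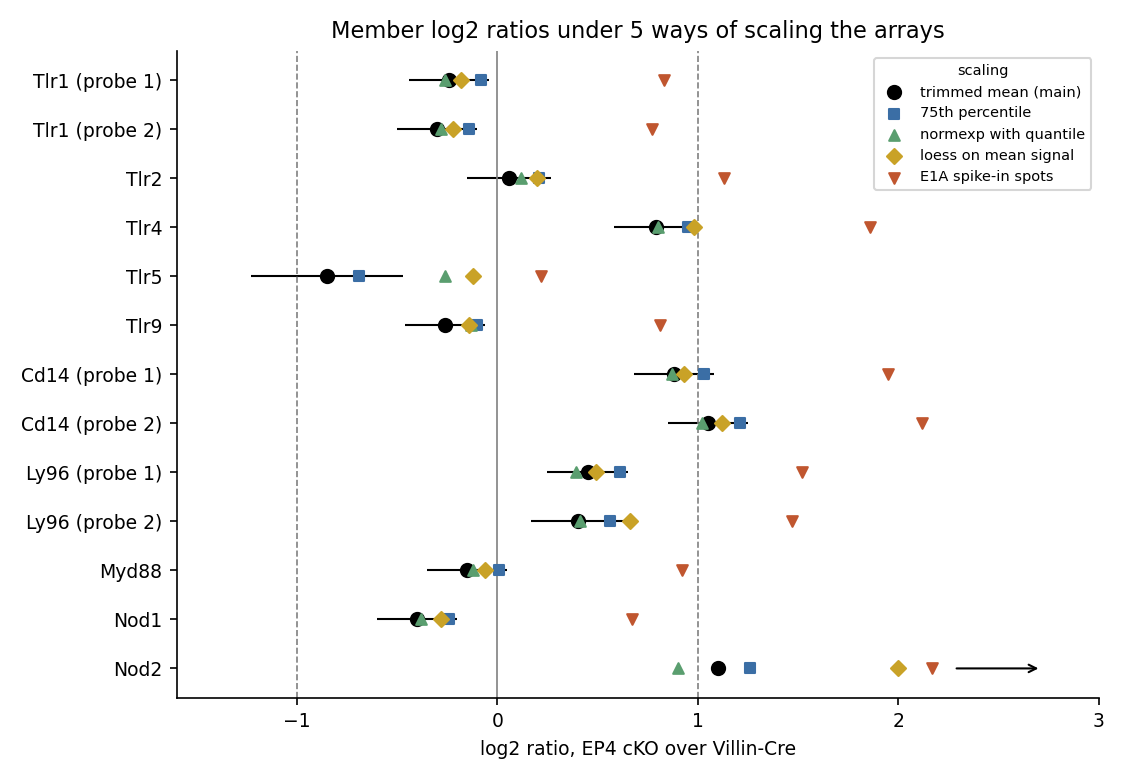
Log2 ratio of EP4 cKO over Villin-Cre for the 13 member probes with a value, under 5 ways of scaling the arrays. Black bars are the software error and dashed lines mark 2-fold. The arrow marks Nod2, whose values are lower bounds except after loess, where the shift depends on the side that was not measured. The points of the E1A spots lie to the right of all others for each probe (Tlr5 at 0.22, against -0.85 with the trimmed mean), and the order of Cd14, Tlr4 and Ly96 over Tlr1, Tlr9, Myd88 and Nod1 is the same with each marker.

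The ratio of the probes measured on both arrays also varied with brightness. The 24734 probes measured on both arrays, whose ratios had a median of -0.19, were divided by mean signal into 10 bins of equal size. The bin medians ran from -0.55 in bin 1, the dimmest, which holds Tlr5, to -0.04 in bin 9, which holds a probe each of Cd14 and Tlr1. The SD of the ratios within bin 1 was 0.58, so that Tlr5 at -0.85 lay within 1 SD of the median of its bin. The lowest signal well above background was 125 on the Villin-Cre-labelled array and 57.8 on the EP4 cKO-labelled array. Among the dimmest probes this filter favours ratios below 0. The median of bin 1 and the place of Tlr5 near it therefore cannot tell brightness from the filter. Tlr4 at 0.79 stood in bin 5, with a median of -0.19 and an SD of 0.68, and both probes of Cd14 in bins 8 and 9, with medians of -0.08 and -0.04 and SDs of 0.65 and 0.68. Tlr4 and Cd14 thus lay more than 1 SD above probes of like brightness. Over all genes regardless of brightness, 6.07% had a higher ratio than Cd14. The brighter probe of Ly96 lay in bin 10 (median -0.10, SD 0.53), slightly over 1 SD above its median, and the other one in bin 3 (median -0.24, SD 0.70), within 1 SD.

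**Figure D3:**
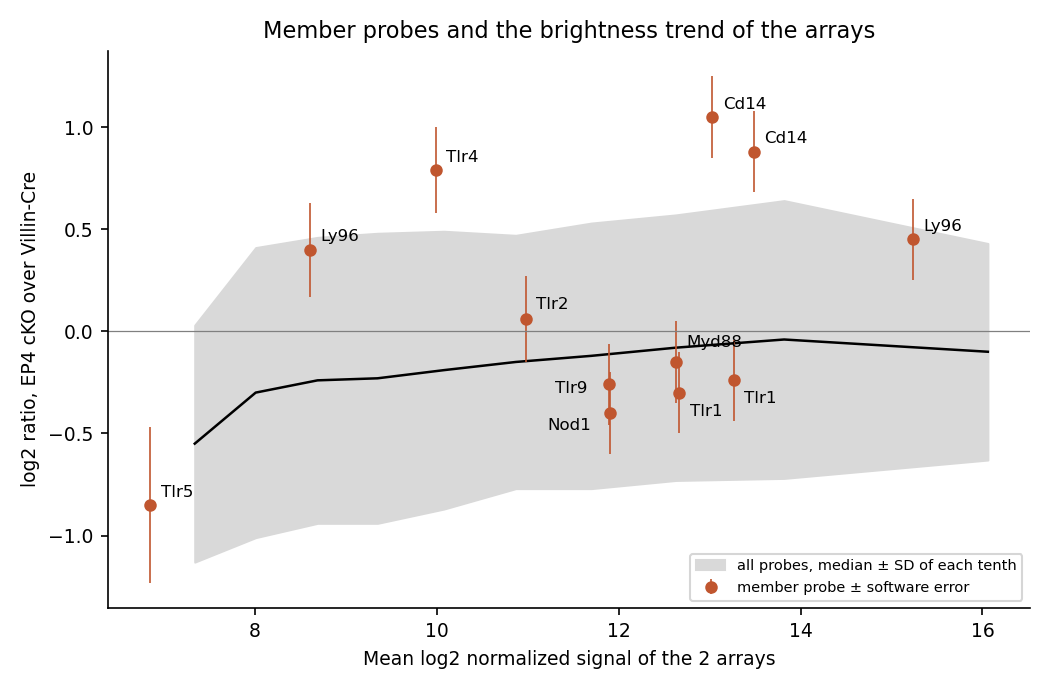
Log2 ratio of each member probe measured on both arrays (points, with the software error) against its mean log2 normalized signal. The line is the median and the grey band 1 SD of all probes in each of 10 bins of mean signal, placed at the bin's median brightness. Tlr4 and both probes of Cd14 lie above the band, and Tlr1, Tlr2, Tlr9, Myd88 and Nod1 lie inside it.

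Of 46 other genes of these pathways, all were on the arrays, 38 had a value. Relative to Villin-Cre, 2 exceeded 2-fold upwards and 2 downwards (4.89% and 7.98% of all genes). Their median log2 ratio was 0.01. Among the remaining Toll-like receptors, 5 of 7 had a value. Tlr3, the endosomal receptor for double-stranded RNA, had 182 and 395, which is 2.17-fold higher (log2 ratio 1.12, and 0.90 after normexp, within 2-fold). A dimmer probe was at least 1.52-fold higher. Tlr7, which binds single-stranded RNA, had 3 probes that disagreed. The brightest had 2183 on the Villin-Cre-labelled array and 14.3 on the EP4 cKO-labelled array, where it was not well above background, and was at least 37.7-fold lower (a log2 ratio of -5.24, and of -2.86 after normexp). Another, for a different transcript, had 1260 and 744, which is 1.69-fold lower, and the last stayed near background on both arrays.

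Among receptor partners and chaperones, 6 of 7 genes had a value. Lbp, the secreted protein that carries lipopolysaccharide to Cd14, had 102 on the Villin-Cre-labelled array, where it was not well above background, and 1012 on the EP4 cKO-labelled array. Lbp was at least 8.07-fold higher (a log2 ratio of at least 3.01). Since the values of Lbp and Nod2 are both lower bounds, they have no order. Cd180, a relative of Tlr4 that restrains its signal in macrophages and dendritic cells, had the lowest ratio of the list (-0.88, from 302 to 164). After normexp Cnpy3 was lower (-0.30 against -0.25).

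The adaptors, kinases and ligases, with 14 of 15 genes measured, had a median of -0.09. They ran from -1.36 for the brightest probe of Ikbkg, the regulatory subunit of the IKK complex, to 0.57 for Chuk, its kinase subunit. The other measured probes of Ikbkg had log2 ratios of 0.02 and -0.18, so that its lower value rests on 1 of 3 measured probes, which gave -0.91 after normexp, within 2-fold. In the NOD arm, 6 of 9 genes had a value, with a median of 0.15, from -0.72 for Slc15a4, a lysosomal transporter of muramyl peptides, to 0.46 for the ubiquitin ligase Birc3. Ripk2, the kinase of both NOD receptors, did not stand well above background on the arrays (27.8 and 29.6). Inhibitors had a median of 0.13 over 7 of 8 genes, from -0.47 for the deubiquitinase Cyld to 0.82 for Tnfaip3, the NF-kappaB target that encodes A20. None of the genes of the NOD arm and of the inhibitors was past 2-fold.

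**Figure D4:**
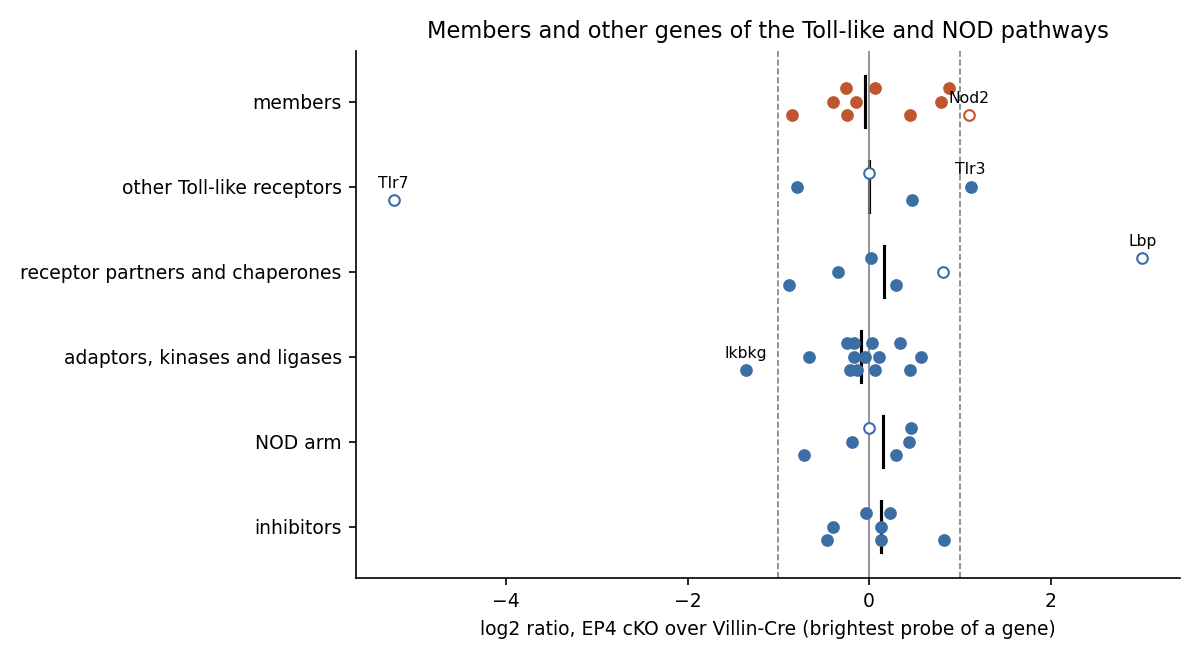
Log2 ratio of EP4 cKO over Villin-Cre for the brightest probe of each of the 10 members (orange) and of 38 other genes of the pathways (blue). Open points were well above background on 1 array only and are bounds, except that of Card9, whose bound did not exceed 1 and was set to 0. Black bars are medians and dashed lines mark 2-fold. The members form 1 group here, and the pathway genes are split by role. The genes past 2-fold are named, and the medians of these 6 groups lie between -0.09 and 0.16.

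The tissue was checked with cell type markers. All 8 epithelial markers (Vil1, Cdh1 and Epcam among them) and all 6 colon markers (such as Car1, Slc26a3 and Muc2) were well above background on both arrays, and the median log2 ratio was 0.37 for the former and 0.07 for the latter. The highest ratios were those of Krt20 (1.80, from 146575 to 510711), a keratin of differentiated surface cells, and of the water channel Aqp8 (1.0, from 236302 to 473610). In RNA of whole tissue, fewer cells of a type and less RNA per cell cannot be told apart. Several members are also made by macrophages. Of 12 macrophage and monocyte markers, 8 had a value, with a median log2 ratio of 0.17 and a summed normalized signal of 55354 on the Villin-Cre-labelled array and 73208 on the EP4 cKO-labelled array. Such a sum follows its brightest probe, here that of Itgam (49347 and 68597). A dimmer probe of Itgam, well above background on the EP4 cKO-labelled array only, had 145 and 84.1 and did not share this rise. Mrc1 was at least 4.31-fold and Cx3cr1 at least 2.04-fold higher, though Cx3cr1 had 0.58 after normexp, within 2-fold. Csf1r had a log2 ratio of -0.79, Cd68 of -0.09 and C1qb of 0.33, and C1qa and C1qc stood at 0.0. Adgre1, Cd163, Fcgr1 and Lyz2 did not stand well above background on the arrays.

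Of 8 neutrophil markers, 3 had a value (median -0.16, sums of 108831 and 83829, which follow the probe of Csf3r), and Mpo, Cxcr2, Camp and Ngp failed that criterion on both. Among 6 dendritic cell markers, 3 had a value (median 0.00, sums of 239017 and 213614, which follow the probe of Siglech at 238790 and 213032), and Itgax was 3.32-fold higher (152 and 505), whereas Flt3, Xcr1 and Clec9a were not well above background. B cell markers had a median of 0.16 over 4 of 6 genes (sums of 653 and 680) and T cell markers 0.24 over 6 of 6 (4961 and 4816), from -0.79 for Cd3d, whose other probe had 0.90, to 1.28 for Cd3g. Fibroblast markers stood apart, with 5 of 6 more than 2-fold lower on the EP4 cKO-labelled array (median -4.81, sums of 13068 and 290), whereas smooth muscle markers had a median of 0.38 over 5 of 6 genes (30049 and 45461), with Cnn1 6.62-fold lower. Endothelial markers had a median of -0.05 over 2 of 5 (1045 and 1067). The part of these cells in the levels of the receptors was not tested.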

How the data were processed

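Total RNA of whole colon was hybridized to SurePrint G3 Mouse GE v2 arrays, 1 for Villin-Cre and 1 for EP4 cKO, labelled with Cy3, on the same slide and scanned together. Each array was mapped to its genotype from the labels. The authors deposited spot intensities as the scanner software gave them (Feature Extraction 12.0.3.1 per the file headers, 11.5.1.1 per the labels), with background subtracted, spatial trends removed and low values replaced by a small positive one. The trimmed-mean scaling of their methods (target 2500) had not been applied to these intensities and was repeated.

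Control spots and spots flagged as outliers on either array (147 and 126) were left out, and spots of a probe were averaged. No spot was saturated. Probes were named by RefSeq accession, without version, in a gene table of GRCm38.p6, and 32989 of 56593 (58.3%) matched. The arrays' grid refers to an older assembly, so probes have no coordinate here. The probe of highest mean signal stands for its gene. A probe well above background on 1 array only gives a bound, with the dim side raised to that array's lowest signal well above background where it lies under it. A bound not exceeding 1 counts as a log2 ratio of 0, and probes dim on both arrays give none. Over 289 probes with 5 or more spots well above background, the median SD of the log2 ratio between spots was 0.035.

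No test was possible with 1 array per genotype. The members, lists, motifs and alternatives were chosen with earlier results of these data known. Named genes are all members, the pathway genes past 2-fold, the highest and lowest of each pathway list, and single markers that describe their list, some of these chosen after their values were seen. The alternatives were scaling to the 75th percentile or to E1A spots, loess (span 0.3), normexp (offset 50, on median spot signals) with quantile normalization, other treatments of dim probes, the mean of all probes, and 1.5-fold. The ratio and loess steps were checked on simulated data. The software was limma 3.58.1 under R 4.3.3, and matplotlib 3.10.9, statsmodels 0.14.6, pandas 2.3.3 and numpy 2.4.6 under Python 3.11.15.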

Additional observations from a re-analysis of the deposited data

How the results depend on the processing

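The count of members more than 2-fold higher, 1 of 10, was 2 with scaling to the 75th percentile (Cd14 and Nod2), 5 with scaling to the E1A spots, 3 at 1.5-fold, and 0 both after normexp with quantile normalization and with only genes measured on both arrays, where Nod2 drops out. Loess left it at 1. The count lower, 0, was 1 at 1.5-fold. Their median of -0.05 was 1.02 with the E1A spots and stayed between -0.15 and 0.11 otherwise. Of the other pathway genes, the 2 higher became 22 with the E1A spots, 3 with loess, 4 with dim probes left at their measured signal and at 1.5-fold, and 1 after normexp, with genes of both arrays alone and with the mean of all probes. The 2 lower became 0 after normexp and with the E1A spots, 1 with genes of both arrays alone and with the mean of all probes, 9 with dim probes kept and 6 at 1.5-fold. After normexp and with the E1A spots another probe of Tlr7 became its brightest (-0.46 and 0.31), while the first stayed past 2-fold lower (-2.86 and -4.17). The median of the pathway genes of 0.01 was 1.08 with the E1A spots. These counts stand beside all genes, of which 41.8% were past 2-fold higher and 2.26% lower with the E1A spots, 6.42% and 6.28% with the 75th percentile, 4.0% and 2.76% after normexp, 7.68% and 5.24% after loess, 4.05% and 6.26% over genes of both arrays, 5.12% and 31.7% with dim probes left at their signal and 4.57% and 8.14% with the mean of all probes, against 4.89% and 7.98%. At 1.5-fold the shares were 9.87% and 18.7%. Loess moved the median of all genes by 0.14, and keeping dim probes moved it by -0.27. Apart from the effect of the settings' own construction, such as fewer genes with a value, the cause was not tested. Signal over background limits Nod2, Tlr5 and Lbp. Leaving out a sample would leave no comparison. No paired analysis was possible because each genotype has 1 array.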
